A study of Mus musculus with 14 samples.

Results

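The tumours of mice given MYCi975 together with TMP195 were compared with the tumours of mice given MYCi975 alone, which asks what the second compound added to the first. The comparison used 7 of the 14 libraries of the series, 3 from the combination and 4 from MYCi975, and every gene with a 14-library mean over 1 log2 unit higher than the lowest value of the table. That left 13711 of 21152 genes. All tumours were grown from LLC1, the mouse Lewis lung carcinoma line, and were taken after 16 days of treatment. MYCi975 alone was given at 50 mg/kg and TMP195 alone at 50 mg/kg, and the controls received DMSO. Neither the labels nor the design text states the doses used when both were given. A change in the dose of MYCi975 and the addition of TMP195 therefore cannot be told apart. The labels do not give the strain, sex or age of the host mice, and they name no engineered allele. They describe the RNA as coming from an enriched tumour population, while the design text of the series calls the material a single-cell suspension of the bulk tumour. Whether the libraries are from separate animals is not stated, and the p-values below therefore rest on a spread between libraries that may be partly technical.

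MYC is a transcription factor that pairs with MAX and binds E-box sequences, and it drives genes of ribosome production, metabolism and cell division. MYCi975 is a small molecule that binds MYC and lowers its activity. TMP195 occupies the catalytic site of HDAC4, HDAC5, HDAC7 and HDAC9, the class IIa histone deacetylases, which are known as corepressors of the MEF2 factors. In a mouse breast tumour model TMP195 is known for acting on monocytes and macrophages. Tumours grown in mice hold leukocytes, fibroblasts and vessels beside the cancer cells, so a tumour RNA sample reads all of these at once.

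Values are on a log2 scale on which 4.05 is the lowest value, shared by all libraries and taken to stand for no reads. A difference is the combination mean minus the MYCi975 mean on that scale. MYCi975 replicate 2 stood apart from the other libraries. It had the highest number of genes at the lowest value in the series (2954, against 880 to 2744 in the others) and a median rank correlation with the others of 0.926, against 0.955 to 0.968. The lowest correlation of the series, 0.898, was the one between MYCi975 replicate 2 and combination replicate 1. These are also the libraries of the comparison that hold RNA of the Y-linked gene Eif2s3y, at 8.0 and 6.63, while the other 5 lay at 4.05. The medians of the immune pathway lists are therefore given with all 7 libraries, without MYCi975 replicate 2, and without combination replicate 1 as well. A marker of either cell state was looked at after the values were seen. Vim, an intermediate filament gene of mesenchymal cells, lay between 14.14 and 14.69 in the 7 libraries. Epcam, an epithelial adhesion gene, lay between 4.05 and 5.30 and was below the limit for testing. Other epithelial markers were expressed, and the mean of the 3 tested, Cdh1, Krt8 and Krt18, lay between 7.33 and 7.83. In bulk tumour RNA these values do not settle the state of the LLC1 cells.

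No gene passed the test. In limma's fit, 0 of 13711 genes had an adjusted p below 0.05 (0%), and the smallest adjusted p was 0.611. At an unadjusted p below 0.05 limma found 1120 genes (8.17%), of which 430 were higher in the combination (3.14%) and 690 lower (5.03%). For comparison, 5% of 13711 genes is 686. Without MYCi975 replicate 2 limma again called 0 genes, the smallest adjusted p was 0.951, and 600 genes (4.38%) had an unadjusted p below 0.05, 269 higher (1.96%) and 331 lower (2.41%). Without combination replicate 1 as well, limma called 0 genes and 341 (2.49%) had such a p. The excess of small p values over the 5% level was thus present with all 7 libraries and absent without MYCi975 replicate 2. It was also absent without combination replicate 1, which left 486 such genes, while leaving out MYCi975 replicate 3 gave 1697. The combination and MYCi975 libraries did not overlap for 484 genes that were higher in the combination (3.53%) and 544 that were lower (3.97%). The 3 combination libraries lay outside the range of all other 11 libraries of the series for 60 genes on the high side (0.438%) and 61 on the low side (0.445%). The median difference over all tested genes was 0.0014, and 49.8% of the differences were below 0.

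**Figure D1:**
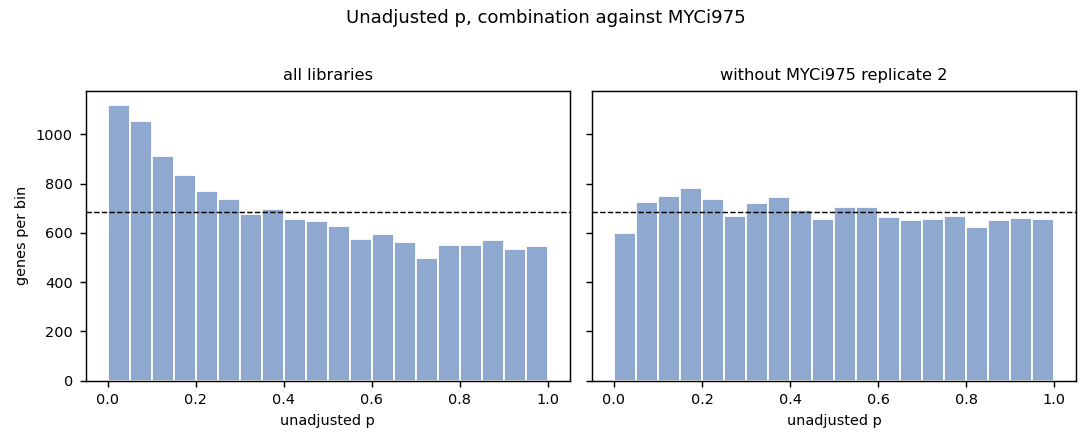
Number of tested genes (vertical axis) in each of the equal bins of unadjusted p from limma (horizontal axis), for the combination against MYCi975, with all libraries on the left and without MYCi975 replicate 2 on the right. The dashed line is an even spread of the 13711 genes over the bins. The lowest bin holds 1120 genes on the left and 600 on the right.

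The gene with the smallest p was Chil3, which encodes the chitinase-like protein Ym1 of myeloid cells. Chil3 stood at 7.18, 7.23 and 7.28 in the combination and at 8.77, 9.55, 8.20 and 8.11 under MYCi975. The groups did not overlap, and the 3 combination values lay close together. The vehicle libraries lay between 7.65 and 8.06, below every MYCi975 library and above every combination library, while TMP195 alone gave 7.11 to 7.91. The difference was -1.43 (95% interval -2.02 to -0.83, limma adjusted p 0.611), a level 2.69-fold lower in the combination. Without MYCi975 replicate 2 the difference was -1.13, and without combination replicate 1 as well it was -1.10.

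Several other myeloid genes stood among those with the smallest p on the lower side, Treml2 and Bcl2a1b with all libraries and Osm and Trem1 without MYCi975 replicate 2. Osm, the cytokine oncostatin M, lay at 6.85, 6.81 and 6.86 in the combination, below all other 11 libraries of the series, and at 8.03, 9.0, 7.38 and 7.29 under MYCi975. Its difference was -1.09 (95% interval -1.72 to -0.45) and -0.73 without MYCi975 replicate 2. Trem1, an activating receptor of neutrophils and monocytes, lay at 6.73, 7.08 and 7.06 against 8.07, 9.14, 7.34 and 7.49. The combination was again below the other 11 libraries, and the difference was -1.06, or -0.68 without MYCi975 replicate 2. Treml2, a related receptor, lay between 4.89 and 5.43 in the combination and between 5.88 and 7.04 under MYCi975. Bcl2a1b, a member of the BCL2 survival family found in leukocytes, lay between 5.55 and 6.02 in the combination and between 6.33 and 7.08 under MYCi975. It belongs to a cluster of near-identical copies, so its own value is uncertain.

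Trex1, the exonuclease that degrades cytosolic DNA and keeps the interferon pathway quiet, was at the lowest value in combination replicates 1 and 3 and at 4.96 in replicate 2. Under MYCi975 it stood at 5.42, 6.16, 5.20 and 5.10. The vehicle and TMP195 libraries lay between 5.01 and 5.81, so the combination was lowest in the series, close to the limit of detection. Herc6, which encodes the mouse enzyme that attaches the interferon-induced modifier ISG15 to proteins, stood at 6.90, 7.99 and 7.89 against 8.47, 9.58, 8.29 and 8.71. The difference of Herc6 was -1.17 (95% interval -1.79 to -0.55), and -0.55 when both doubted libraries were left out.

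The remaining genes of this group have roles outside the immune system. Sbno1, a putative helicase, gave one of the tightest separations. It lay at 10.39, 10.58 and 10.57 in the combination and between 10.91 and 11.01 in all 4 libraries under MYCi975, a difference of -0.46 (95% interval -0.68 to -0.24). MYCi975 lay above the other groups here, since vehicle and TMP195 ran from 10.57 to 10.81. Isy1, a splicing factor, stood at 7.30, 7.99 and 7.57 against 8.50, 8.94, 8.61 and 8.28, a difference of -0.96 that remained at -0.84 without MYCi975 replicate 2. Ndel1, a dynein regulator, Atp6v1f, a subunit of the vacuolar proton pump, and Erg, a transcription factor of endothelial cells, were each below all other 11 libraries in the combination. Their differences were -0.95, -0.76 and -0.64. The endothelial list, which holds Erg, had 7 of 9 tested genes lower, beside 49.8% of all tested genes. The median of that list was -0.11, and its differences ran from -0.64 to 0.49.

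On the higher side the gene with the smallest p was Git1, a scaffold protein of focal adhesions. It lay at 8.80, 8.81 and 8.61 in the combination and at 8.22, 8.08, 8.34 and 8.12 under MYCi975, and no vehicle or TMP195 library exceeded 8.37. The difference was 0.55 (95% interval 0.29 to 0.81, limma adjusted p 0.611), a level 1.46-fold higher, and it was 0.51 without MYCi975 replicate 2. Nek3, a NIMA-related kinase, lay at 5.51, 5.53 and 5.57 against 4.82, 4.85, 5.18 and 4.68, also above all other 11 libraries. Zfp169, a zinc finger gene, lay at 6.62, 6.87 and 6.83 against 6.07, 5.75, 6.34 and 5.84, but vehicle reached 6.66. Git1, Nek3, Zfp169 and Top3b, a topoisomerase acting on DNA and RNA, were the 4 of these 10 genes that stayed among the 10 smallest p without MYCi975 replicate 2, and 6 of the 10 on the lower side did so.

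Lama2, a laminin chain of basement membranes, had the widest difference of these 10 genes, 1.68 (95% interval 0.73 to 2.63). Its values were 8.34, 7.28 and 6.52 in the combination and 5.86, 5.05, 6.25 and 5.66 under MYCi975. Combination replicate 1 carried much of that distance, and without it and MYCi975 replicate 2 the difference was 0.98. Mxra8, a matrix-associated receptor, Csgalnact1, an enzyme of chondroitin sulphate synthesis, Smg9, a factor of nonsense-mediated decay, Ints1, a subunit of the Integrator complex, and Jade2, a histone acetylation cofactor, made up the rest, with differences from 0.48 to 0.66. These genes were chosen for small p in this comparison, so the separation of their groups describes them and gives no further support.

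**Figure D2:**
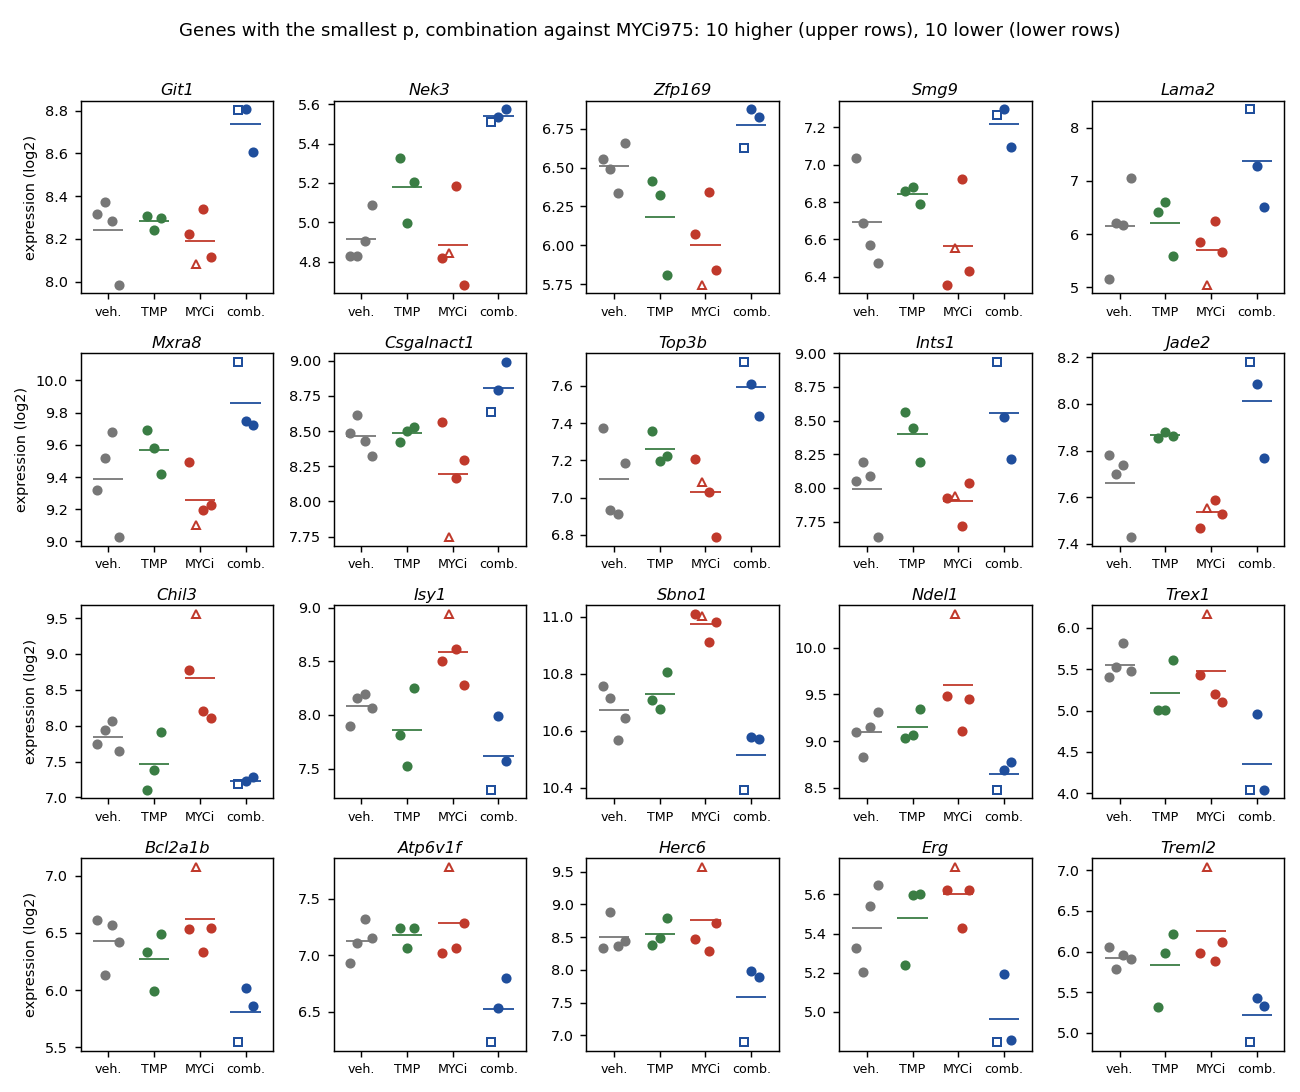
Expression on the log2 scale (vertical axis) in each library of vehicle, TMP195, MYCi975 and the combination (horizontal axis) for the 10 genes with the smallest p on either side. Bars are group means, the open triangle is MYCi975 replicate 2 and the open square is combination replicate 1. For Chil3 the combination lies at 7.18 to 7.28, below vehicle at 7.65 to 8.06 and MYCi975 at 8.11 to 9.55, and for Sbno1 all MYCi975 libraries lie at 10.91 or higher.

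Without MYCi975 replicate 2, 6 further genes were among the 10 smallest p on the higher side. Ndrg2, a gene of the NDRG family of differentiation-related genes, lay between 5.82 and 6.09 in the combination and at 5.12, 6.14, 5.22 and 4.95 under MYCi975. The value of 6.14 is MYCi975 replicate 2, and the difference went from 0.64 with it to 0.90 without it. Ano1, a calcium-activated chloride channel, stood at 8.39, 7.12 and 7.97 against 6.17, 7.03, 7.28 and 6.62, with a difference of 1.14 without that library. Syngr1, Mamdc4, Dffb and Sidt2 were the other members. On the lower side Fbxo8 and Utp6 joined Osm and Trem1. Utp6, a factor of ribosomal RNA processing, lay at 8.28, 8.26 and 8.06 in the combination and at 8.95, 8.70, 8.84 and 8.70 under MYCi975, with differences of -0.59 and -0.63 with and without that library.

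Among the gene lists, those of inflammation and most of those of leukocytes had medians below 0. In 8 lists of immune pathways, 124 of 128 tested genes had a difference below 0 and the median was -0.55, beside 49.8% and 0.0014 over all tested genes. Of these 128 genes, 35 had an unadjusted p below 0.05 on the lower side and 0 on the higher side, beside 5.03% and 3.14% of all tested genes. The groups did not overlap for 14 that lay lower, beside 3.97%. Without MYCi975 replicate 2 the count below 0 was 119 and the median -0.31, beside 51% of all tested genes below 0. Without combination replicate 1 as well it was 92 and -0.12, beside 50.6%. In 7 lists of leukocyte markers, which leave out mast cells, 46 of 52 genes lay below 0 with a median of -0.50, which became -0.30 and -0.21 in the same steps. In bulk tumour RNA, fewer cells of a type and less RNA per cell cannot be told apart.

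**Figure D3:**
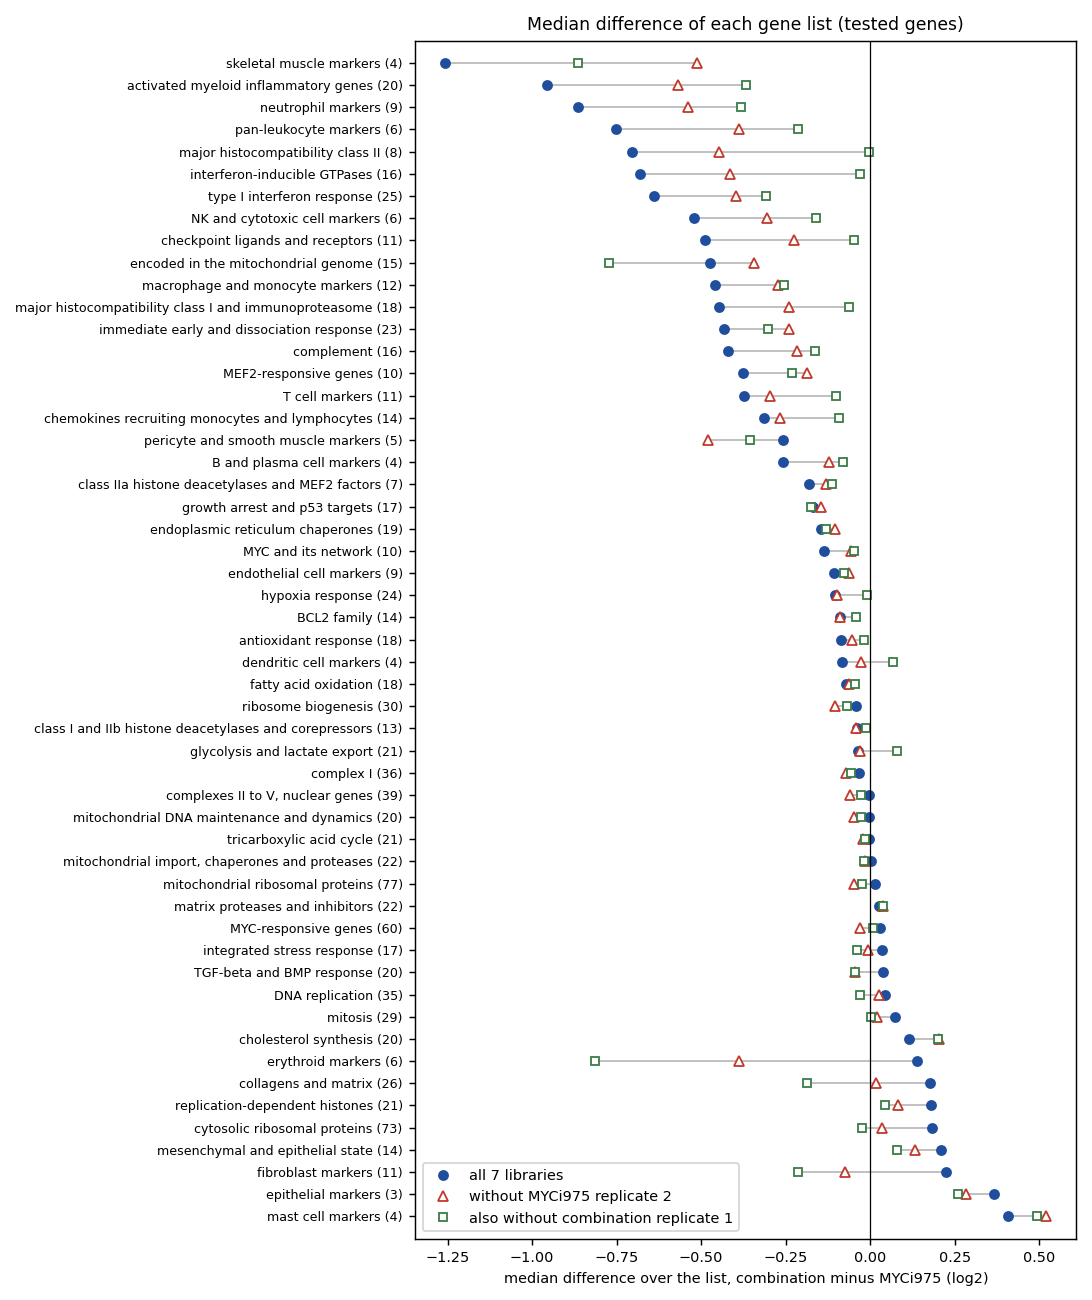
Median difference between the combination and MYCi975 on the log2 scale (horizontal axis) for each list with at least 3 tested genes (vertical axis, number of tested genes in brackets). Filled circles use all 7 libraries, triangles leave out MYCi975 replicate 2 and squares leave out combination replicate 1 as well. The median of the activated myeloid list is -0.96, -0.57 and -0.37 in that order, and that of complex I is -0.03, -0.07 and -0.06.

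The pan-leukocyte markers were lower in 6 of 6 genes, with a median of -0.75, which was -0.39 without MYCi975 replicate 2 and -0.21 without combination replicate 1 as well. Ptprc, which encodes CD45, lay at 9.65, 10.35 and 10.12 in the combination and at 10.87, 12.07, 10.09 and 10.35 under MYCi975. The groups overlapped, and the difference of the means gave an exact permutation p of 0.257 (two-sided, n = 3 and 4, smallest p possible 0.0286). Without MYCi975 replicate 2 the difference of Ptprc was -0.40 instead of -0.81. Cd53, a leukocyte tetraspanin, and Laptm5, a lysosomal membrane protein of blood cells, did not overlap between the groups. Cd53 stood at 8.15, 8.48 and 8.48 against 9.33, 10.17, 8.60 and 8.94.

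The neutrophil markers were lower in 9 of 9 tested genes, with a median of -0.86, and 5 had an unadjusted p below 0.05, beside 5.03% of all tested genes. S100a9, a subunit of the calcium-binding alarmin calprotectin, lay at 10.96, 11.17 and 10.92 in the combination and at 12.15, 13.00, 11.22 and 12.28 under MYCi975. The groups did not overlap for S100a9, and the difference was -1.14 (95% interval -1.83 to -0.46) or -0.86 without MYCi975 replicate 2. S100a8, the other subunit, overlapped at the edge, with 8.79, 8.80 and 9.13 against 9.94, 10.52, 9.05 and 9.70. Csf3r, the receptor for the granulocyte growth factor G-CSF, had a difference of -1.17, or -0.69 without MYCi975 replicate 2, and Ly6g was measured but lay below the limit for testing. The list median was -0.54 without MYCi975 replicate 2, -0.38 without combination replicate 1 as well, and -0.49 with Ptprc as a covariate.

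The macrophage and monocyte markers were lower in 11 of 12 genes, with a median of -0.46, which was -0.27 without MYCi975 replicate 2 and -0.26 without combination replicate 1 as well. Ccr2, the receptor that brings monocytes into tissue, was the clearest of them, at 9.14, 9.12 and 9.17 in the combination and 9.75, 10.90, 9.46 and 9.80 under MYCi975. The combination values of Ccr2 lay close together and below all other 11 libraries. T cell markers were lower in 9 of 11 tested genes with a median of -0.37, which was -0.30 and -0.10 in the same steps. Markers of natural killer and cytotoxic cells were lower in 6 of 6 with a median of -0.52, which was -0.30 and -0.16. The dendritic cell list lay near 0, with 2 of 4 tested genes lower and a median of -0.08. Mast cell markers went the other way, with 3 of 4 tested genes higher and a median of 0.41, or 0.52 without MYCi975 replicate 2. Cma1, a mast cell chymase, lay at 5.23, 5.61 and 5.38 against 5.07, 5.36, 4.81 and 4.89, close to the lowest value of the table.

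The list of activated myeloid inflammatory genes had all 20 tested genes lower and a median of -0.96, and 12 of the 20 had an unadjusted p below 0.05, beside 5.03% of all tested genes. Cxcl2, a chemokine that attracts neutrophils, lay at 9.53, 9.32 and 9.79 in the combination and at 11.60, 12.46, 10.04 and 9.48 under MYCi975. MYCi975 replicates 1 and 2 were high and replicate 4 lay inside the combination, and the difference was -1.35, or -0.82 without MYCi975 replicate 2. Il1a, the cytokine interleukin 1 alpha, stood at 5.10, 5.95 and 5.57 against 6.91, 7.35, 5.96 and 6.14, and Clec4e, the receptor Mincle, at 8.12, 8.50 and 8.76 against 9.78, 10.86, 8.78 and 8.97. For both genes the groups were separated by a narrow gap. The list median was -0.57 without MYCi975 replicate 2, -0.37 without combination replicate 1 as well, and -0.21 with Ptprc as a covariate.

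Type I interferon response genes were lower in 25 of 25 members, with a median of -0.64. Of these, 13 had an unadjusted p below 0.05, beside 5.03% of all tested genes, and 7 did not overlap between the groups, beside 3.97%. Without MYCi975 replicate 2 all 25 were still below 0 with a median of -0.40, and 2 had such a p, beside 2.41%. Without combination replicate 1 as well, 22 were below 0 with a median of -0.31. Oas1a, a sensor of double-stranded RNA, lay at 5.83, 5.91 and 6.03 in the combination, below all other 11 libraries, and at 6.40, 7.21, 6.14 and 6.43 under MYCi975. Rsad2, the antiviral enzyme viperin, lay at 8.37, 7.54 and 8.03 against 8.56, 9.67, 8.40 and 8.64, a difference of -0.83, or -0.55 without MYCi975 replicate 2. Mx2, an antiviral dynamin-like protein, lay at 5.10, 4.91 and 5.11 against 6.17, 6.63, 5.25 and 5.30.

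The promoters of Oas1a and Rsad2 are shown because genes of this list lay lower together and type I interferon acts through a known sequence element, the interferon-stimulated response element. The windows run from 250 bases before to 50 after the start of the gene in RefSeq on GRCm38.p6, are written 5′ to 3′ on the strand of the gene, and come from chr5:120907476-120907775 and chr12:26456403-26456702, both on the minus strand. Capitals mark matches to GAAANNGAA, a core of that element, or to its reverse complement TTCNNTTTC, and overlapping matches are joined. The first match begins 20 bases before the start of Oas1a and 119 before that of Rsad2.
Oas1a: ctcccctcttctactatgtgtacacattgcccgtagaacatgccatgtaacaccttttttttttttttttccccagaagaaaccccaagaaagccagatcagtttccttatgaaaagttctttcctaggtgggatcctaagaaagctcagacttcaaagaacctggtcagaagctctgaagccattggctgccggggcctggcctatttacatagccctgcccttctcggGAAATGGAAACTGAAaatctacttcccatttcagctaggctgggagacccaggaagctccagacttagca
Rsad2: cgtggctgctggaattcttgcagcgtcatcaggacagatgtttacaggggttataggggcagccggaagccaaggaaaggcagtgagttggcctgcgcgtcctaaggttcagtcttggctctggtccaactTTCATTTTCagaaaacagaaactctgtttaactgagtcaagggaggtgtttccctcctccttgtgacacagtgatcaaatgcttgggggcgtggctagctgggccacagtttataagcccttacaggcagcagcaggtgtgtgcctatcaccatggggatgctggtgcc
On either strand this motif was found in 11 of the 17 promoters of the list that had an entry (64.7%), and in 730 of the 9570 promoters of tested genes (7.63%). The list was drawn up as genes that respond to type I interferon, so this share describes the list and not the comparison. A match is a sequence description and was not tested as a binding site.

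Interferon-inducible GTPases, which attack the vacuoles of intracellular pathogens, were lower in 16 of 16 genes with a median of -0.68. The mean level of the list was 7.11, 8.50 and 8.10 in the combination and 9.0, 9.21, 7.66 and 8.33 under MYCi975. The groups overlapped. The median was -0.41 without MYCi975 replicate 2, -0.25 without combination replicate 1 and -0.03 without both. The list holds near-identical copies, among them Tgtp1 and Tgtp2, whose single values are uncertain. Genes of major histocompatibility class II, which present antigen to helper T cells, were lower in 8 of 8 tested members with a median of -0.71, -0.45 without MYCi975 replicate 2, -0.26 without combination replicate 1 and -0.00 without both. H2-Ab1 lay at 7.01, 8.63 and 8.49 in the combination and at 9.09, 9.79, 7.84 and 8.82 under MYCi975. Combination replicate 1 was the lowest of the series for this gene. Class I genes with the immunoproteasome were lower in 17 of 18, with a median of -0.45. The median was -0.24 without MYCi975 replicate 2 and -0.20 without combination replicate 1, and without both it was -0.06, with 12 of 18 below 0.

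Checkpoint genes were lower in 11 of 11 tested members, with a median of -0.49. The median was -0.23 without MYCi975 replicate 2, and without combination replicate 1 as well it was -0.05, with 7 of 11 below 0. Cd80, a costimulatory ligand of antigen-presenting cells, lay at 6.06, 6.64 and 6.63 against 7.25, 8.18, 6.75 and 7.0, and the groups did not overlap. Cd274, which encodes PD-L1, overlapped at 7.64, 8.89 and 8.80 against 9.37, 10.40, 8.13 and 8.99, and its difference was -0.78 with all libraries and 0.01 without the 2 doubted ones. Complement genes were lower in 14 of 16, with a median of -0.42. The median was -0.22 without MYCi975 replicate 2, and without both doubted libraries it was -0.16, with 11 of 16 below 0. Chemokines for monocytes and lymphocytes were lower in 13 of 14, with a median of -0.31, among them Ccl9 at 9.66, 9.76 and 9.57 against 10.30, 10.75, 9.87 and 10.01. The chemokine median was -0.27 without MYCi975 replicate 2 and -0.09 without both, with 9 of 14 below 0.

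With the level of Ptprc as a covariate, an alternative chosen after seeing the data, the immune lists parted. The medians of the interferon-inducible GTPases, class II, class I, checkpoint and complement lists became 0.08, 0.11, 0.02, 0.02 and 0.04, and those of macrophage and T cell markers 0.02 and 0.03. The medians of the neutrophil, activated myeloid and type I interferon lists remained below 0, at -0.49, -0.21 and -0.13. Between these lay the chemokine list at -0.05 and the pan-leukocyte markers, which include Ptprc itself, at -0.08. The difference between these lists was not tested.

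**Figure D4:**
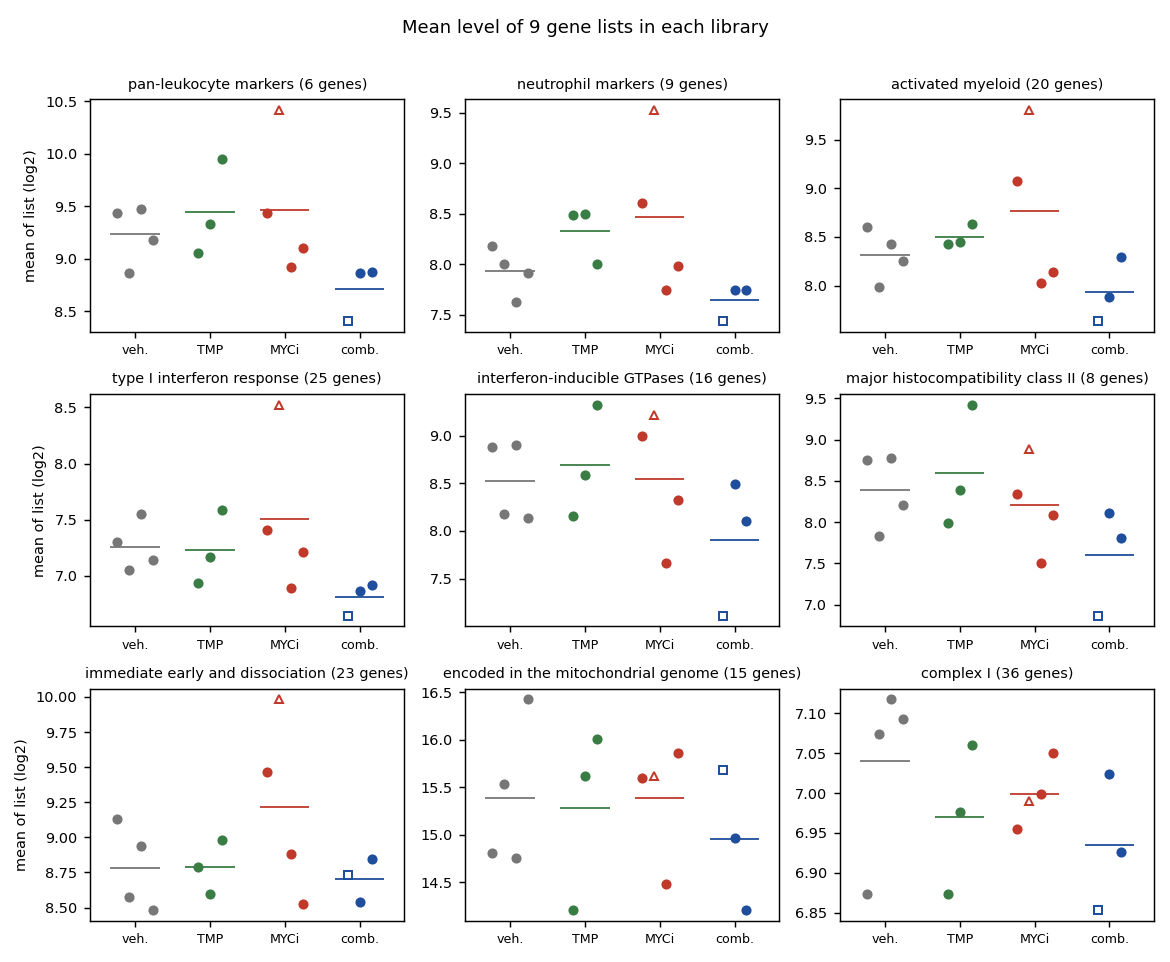
Mean log2 level of 9 gene lists (vertical axis) in each library of vehicle, TMP195, MYCi975 and the combination (horizontal axis). Bars are group means, the open triangle is MYCi975 replicate 2 and the open square is combination replicate 1. The combination lies at 6.64 to 6.92 for type I interferon genes, against 6.89 to 8.53 under MYCi975, and at 14.21 to 15.68 for genes of the mitochondrial genome, against 14.48 to 15.86.

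Immediate early genes, which respond within minutes to growth factors, stress and tissue dissociation, were lower in 21 of 23 members with a median of -0.43. Atf3, a stress-induced transcription factor, lay at 8.19, 8.07 and 8.17 in the combination and at 9.54, 10.31, 8.70 and 8.67 under MYCi975. The groups did not overlap, and the difference was -1.16 (95% interval -1.88 to -0.44) or -0.82 without MYCi975 replicate 2. Dusp1, a phosphatase of stress kinases, lay at 8.99, 9.35 and 9.52 against 10.59, 11.51, 9.68 and 9.55. Fos overlapped, at 10.45, 10.04 and 10.38 against 11.44, 12.29, 10.65 and 10.28. MYCi975 replicates 1 and 2 were high, as they were for the leukocyte markers. The list median was -0.24 without MYCi975 replicate 2, -0.30 without combination replicate 1 as well, and -0.09 with Ptprc as a covariate.

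The list of growth arrest and p53 targets had 11 of 17 tested genes below 0 and a median of -0.17, or -0.15 without MYCi975 replicate 2. The groups did not overlap for 4 of the 17, all lower in the combination, beside 3.97% of all tested genes, and 3 had an unadjusted p below 0.05 on the lower side, beside 5.03%. Gadd45a, a stress-induced growth arrest gene, lay at 7.41, 7.81 and 7.73 in the combination and at 8.25, 8.69, 8.29 and 8.23 under MYCi975, with a difference of -0.72 (95% interval -1.12 to -0.31) and -0.61 without MYCi975 replicate 2. The vehicle libraries of Gadd45a lay between 7.31 and 8.03, so the MYCi975 libraries were above all of them and the combination was inside their range. Pmaip1, which encodes the death-promoting protein NOXA, lay at 7.0, 7.53 and 7.59 against 7.99, 8.49, 7.79 and 7.70.

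The direct targets of the compounds differed little. Myc stood at 8.98, 9.11 and 9.11 in the combination and at 8.97, 9.27, 9.42 and 8.86 under MYCi975, a difference of -0.06 (95% interval -0.39 to 0.27). Both compounds act on proteins, so the RNA level of a target does not check the labels. Hdac4, Hdac5 and Hdac9 had differences of -0.12, -0.18 and -0.14, and Hdac7 one of 0.25 (95% interval -0.01 to 0.51). Mef2d, a MEF2 factor, lay at 8.54, 8.32 and 8.49 against 9.22, 9.34, 8.80 and 8.02 and overlapped. Of 10 tested MEF2-responsive genes 6 were lower, beside 49.8% of all tested genes, with a median of -0.38. That median was -0.19 without MYCi975 replicate 2, -0.23 without combination replicate 1 as well, and 0.06 with Ptprc as a covariate. The lower genes were Des and, all shared with the immediate early list, Nr4a1, Egr1, Jun, Klf2 and Klf4. The MEF2-responsive and immediate early lists are therefore not separate observations. Skeletal muscle markers, 4 of 10 of which could be tested, had a median of -1.26, which was -0.51 without MYCi975 replicate 2 and -0.36 without combination replicate 3. The mean level of these 4 genes ran from 4.76 to 6.60 in the combination and from 5.96 to 8.68 under MYCi975. None of these 4 genes is among the 10 tested MEF2-responsive genes, and a part of muscle in the MEF2-responsive values was not tested. Mxd1, a MAX partner that opposes MYC, lay at 9.02, 9.39 and 9.35 against 10.37, 11.53, 9.28 and 9.73, a difference of -0.97 that was -0.53 without MYCi975 replicate 2.

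MYC-responsive genes as a list lay at the centre of all genes. Of 60 genes 31 were higher and 29 lower, with a median of 0.03, and -0.03 without MYCi975 replicate 2. Single members went either way. Cad, which starts pyrimidine synthesis and is a long-known MYC target, lay at 9.19, 9.58 and 9.38 in the combination and at 8.86, 7.81, 8.76 and 8.65 under MYCi975, a difference of 0.86 (95% interval 0.34 to 1.38) without overlap. Set, a histone chaperone, and Ncl, the nucleolar protein nucleolin, lay lower without overlap, by differences of -0.62 and -0.53. Of the 60 genes, 1 lay higher and 3 lower without overlap, beside 3.53% and 3.97% of all tested genes. The E-box CACGTG, which reads the same on the other strand, was found in 16 of the 54 promoters of the list with an entry (29.6%) and in 977 of 9570 promoters of tested genes (10.2%). The list was drawn up as MYC-responsive genes, so this share too describes the list and not the comparison. Ribosome biogenesis genes were lower in 21 of 30 with a median of -0.04. Cytosolic ribosomal protein genes were higher in 59 of 73 with a median of 0.18. Their median was 0.03 without MYCi975 replicate 2 and -0.04 without combination replicate 2, so the direction rests on single libraries.

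The title of the series names mitochondrial dysfunction, and the nuclear genes of mitochondria had medians near 0 with all libraries. The median was -0.03 over 36 complex I genes, -0.00 over 39 nuclear genes of complexes II to V, 0.01 over 77 mitochondrial ribosomal proteins and -0.00 over 21 genes of the tricarboxylic acid cycle. Without MYCi975 replicate 2 they were -0.07, -0.06, -0.05 and -0.02 in that order, beside -0.006 over all tested genes. Without combination replicate 1 as well they were -0.06, -0.03, -0.02 and -0.02. With all libraries, median centring and quantile normalisation turned the sign of the medians of complexes II to V and of the tricarboxylic acid cycle. These then lay between 0.01 and 0.06. Of the 36 complex I genes 23 were lower and 13 higher. In limma's fit 2 had an unadjusted p below 0.05 on the lower side and 0 on the higher side. The shares of all tested genes were 5.03% and 3.14%. These 2 were Ndufb2 and Ndufa2, the latter with a difference of -0.40. Ndufb2, an accessory subunit of complex I, lay at 6.32, 6.74 and 6.64 in the combination and at 6.77, 7.28, 7.25 and 6.96 under MYCi975, just apart. Ndufb5, another accessory subunit with a larger p, lay higher at 7.48, 7.90 and 7.53 against 7.37, 7.45, 7.40 and 7.43. Tfam, the packaging factor of mitochondrial DNA, lay at 7.51, 7.33 and 7.54 against 7.83, 7.79, 7.59 and 7.88. Its difference was -0.31 with an interval from -0.69 to 0.07.

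The genes encoded in the mitochondrial genome were lower in 14 of 15 members with a median of -0.47, but they varied widely within each group. The mean level of the list was 15.68, 14.97 and 14.21 in the combination and 15.59, 15.62, 14.48 and 15.86 under MYCi975, and the vehicle libraries alone ran from 14.76 to 16.43. For mt-Nd2, a core subunit of complex I, the difference was -0.64 with an interval from -1.83 to 0.55. The 15 genes come from 1 small genome and share its transcripts, so they are not separate observations. Leaving out combination replicate 3 gave a median of -0.11, and leaving out combination replicate 1 gave -0.87.

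Hypoxia and glucose genes lay near the centre. The hypoxia list had 15 of 24 genes lower and a median of -0.10. Without MYCi975 replicate 2, 18 were lower with a median of -0.10. Without combination replicate 1 as well, 14 were lower with a median of -0.01. With Ptprc as a covariate 19 were lower with a median of -0.12. Hif1a, the oxygen-regulated transcription factor, stood at 11.02, 11.14 and 11.97 in the combination and at 11.73, 12.15, 11.59 and 11.52 under MYCi975, overlapping through combination replicate 3. In the glycolysis list 13 of 21 genes were lower with a median of -0.04 that was 0.05 without combination replicate 1, and Slc2a3, the glucose transporter GLUT3 that leukocytes also use, had a difference of -1.15, or -0.57 without MYCi975 replicate 2, where it stood at 10.01. Cholesterol synthesis genes were higher in 14 of 20, with a median of 0.11, which was 0.20 without MYCi975 replicate 2 and -0.01 without combination replicate 3. Mitosis genes were higher in 18 of 29 with a median of 0.07, or 0.02 without MYCi975 replicate 2. Aurkb, the mitotic kinase Aurora B, lay at 7.19, 7.33 and 7.11 against 6.89, 6.47, 7.10 and 6.92. Replication-dependent histone genes, many of them near-identical copies whose single values are uncertain, were higher in 18 of 21 with a median of 0.18. Of these 21, 3 had an unadjusted p below 0.05 on the higher side, beside 3.14% of all tested genes. With Ptprc as a covariate the histone median was -0.00, and leaving out MYCi975 replicate 2 gave 0.08.

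Among cell-state and matrix genes, Krt18, a keratin that LLC1 tumours expressed in all 14 libraries, lay at 8.82, 8.69 and 8.88 in the combination and at 8.07, 7.84, 8.69 and 8.25 under MYCi975, a difference of 0.59 (95% interval 0.13 to 1.05). Krt8, its partner, overlapped with a difference of 0.37. Of 3 tested epithelial markers 1 lay lower, Cdh1, with a difference of -0.31. Collagen and matrix genes were higher in 17 of 26 with a median of 0.18, which was 0.02 without MYCi975 replicate 2 and -0.04 without combination replicate 1. Col16a1, a collagen of the fibril-associated class, lay at 10.01, 9.39 and 9.35 against 9.35, 8.71, 9.0 and 9.27. Fibroblast markers had a median of 0.22 that became -0.07 without MYCi975 replicate 2, so no direction holds for them. The same applies to erythroid markers, at 0.14 and -0.39.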

How the data were processed

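RNA from 14 libraries of LLC1 tumours was read from a table of 21152 mouse Ensembl gene IDs, which the authors deposited as variance-stabilised log2 values, going by the file's name. Salmon (no version) and the genome build hg38 appear in the submitters' processing notes. That build is human although the IDs are mouse, so it cannot be settled which build the values rest on, and no coordinates come from the table. No source used here states how libraries were scaled. Read counts could not be recovered and the depth is unknown. The protocol in the labels names a stranded total RNA kit. Of the IDs, 20264 (95.8%) matched a mouse symbol.

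Genes with a mean over 1 log2 unit above the lowest value, 4.05, were tested. limma 3.58.1 in R 4.3.3 fitted 1 mean per group to all 14 libraries, with moderation along an intensity trend (10 residual and 5.275 prior degrees of freedom). Tests were two-sided, with Benjamini-Hochberg adjustment over 13711 genes at 0.05, and the procedure was tested on simulated data. Differences understate folds near the lowest value. Library measures were compared by an exact permutation test over the 35 splits of 3 against 4 libraries, with p adjusted over both measures of 0.257 for Ptprc and for the number of genes at the lowest value.

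The comparison, its genes and the 55 gene lists (39 of pathways, 16 of cell type markers) were chosen with earlier results of these data known. Genes were named by a rule: as none passed, the 10 smallest p in each direction, with all libraries and without MYCi975 replicate 2 (predicted genes, clones and pseudogenes left out), the members of a list with its smallest p, at most 4, and always Myc, Hdac4, Hdac5, Hdac7, Hdac9, Mef2d, Hif1a and Ptprc. Eif2s3y, Vim, Epcam, Ly6g, the lower MEF2-responsive genes and the ranges over other libraries were chosen after values were seen. Alternatives were other filters, moderation, scaling, library weights, the 7 libraries alone, a replicate block and leaving out each library. Leaving out both libraries with Y-linked RNA and Ptprc as a covariate were added after seeing the data. Promoters are the first-listed RefSeq window of a gene on GRCm38.p6, and 9570 tested genes had one.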

Additional observations from a re-analysis of the deposited data

Results flagged for a closer look

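The MYCi975 group, with 4 libraries, was checked for a library far from the other 3, and the combination, with 3, was too small for that check. Of 133 values checked 9 were flagged (6.77%), and 6 of the 9 were MYCi975 replicate 2. For separate values chance flags about 1 in 20. The values checked share genes and libraries, and some genes were chosen after values were seen, so the counts are descriptive. That library held 2954 genes at the lowest value against 1803 to 1981 in the other MYCi975 libraries. Its Gadd45a was 8.69 against 8.23 to 8.29, its Eif2s3y 8.0 against 4.05, and its Vim 14.25 against 14.37 to 14.38. Its mean level of the BCL2 family was 7.56 against 7.30 to 7.34, and that of erythroid markers 8.13 against 9.90 to 10.16. MYCi975 replicate 3 stood apart for the mean level of the hypoxia list, 8.64 against 8.80 to 8.82, and for epithelial markers, 7.83 against 7.33 to 7.38. In MYCi975 replicate 4, Hdac9 was 5.51 against 6.03 to 6.11.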

How the results depend on the processing

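limma called 0 genes under all alternatives run. The number of genes at an unadjusted p below 0.05, 1120 with all libraries, was between 838 and 1558 under the other filters, moderation, scaling, library weights and the fit to the 7 libraries alone, and between 486 and 1697 when 1 library was left out. It was 600 without MYCi975 replicate 2, 486 without combination replicate 1 and 1697 without MYCi975 replicate 3. Without both libraries with Y-linked RNA it was 341, and with Ptprc as a covariate 367. The cause of these shifts was not tested. For 77 of the named genes the direction was followed, and 71 kept it under every alternative run for them. These genes were largely chosen for small p in this comparison, so the count describes them and gives no further support. H2-Ab1 turned to 0.0762 with Ptprc as a covariate, and Cd274 to 0.0107 without both libraries and 0.0450 with Ptprc, while it lay between -1.15 and -0.38 when 1 library was left out. Myc turned to 0.0020 under quantile normalisation and 0.0310 without both libraries, and lay between -0.15 and 0.0376 (without MYCi975 replicate 3) when 1 library was left out. Hdac9 lay between -0.39 and 0.0169 (without combination replicate 3). Eif2s3y, at -0.13, turned to 0.49 with library weights and 0.88 with Ptprc, and lay between -0.99 and 0.86 when 1 library was left out, with 0.30 without combination replicate 2 or replicate 3. Vim, at 0.0153, turned to -0.0323 with library weights and lay between -0.15 and 0.13 when 1 library was left out, with -0.0148 without MYCi975 replicate 2. The depth is unknown, so values near 4.05 cannot be told from no expression.

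The groups share replicate numbers, which the labels do not explain as pairs. Deviations of same-numbered libraries correlated at 0.04, 0.15 and 0.06, and those of other numbers between -0.25 and 0.18. Combination replicate 2 correlated best with its own number (0.15). Combination replicate 1 did so with MYCi975 replicate 3 (0.18), and combination replicate 3 with MYCi975 replicate 2 (0.07). These weak values do not settle whether the numbers are pairs, and the numbers were not taken as pairs. With the replicate block over numbers 1 to 3 limma called 0 genes and 1381 had an unadjusted p below 0.05, and with the block over all libraries 0 and 1320.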
